A study of Homo sapiens with 35 samples.

Results

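The sites described here are places where RNA polymerase II (RNA Pol II) was found in every control library of the U-87 MG glioblastoma cell line, but away from gene starts. Peaks of the 4 control RNA Pol II lists, 2 from untreated and 2 from TWEAK-treated cells, were merged where they overlapped on chromosomes 1 to 22 and X, which gave 70348 sites. A site was kept when it held a peak in all 4 lists (8981 sites) and its centre lay outside the window from -1000 to +100 bp around every GENCODE transcript start (release 44, hg38). This left 3791 sites, and the other 5190 constant sites, centred inside such a window, served as promoter sites for comparison. A further 1058 sites outside promoters held a peak in both TWEAK lists and in neither untreated list.

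RNA Pol II transcribes every protein-coding gene, most long non-coding RNA genes and most of the small nuclear RNA genes of the splicing machinery. Its peaks are sharpest just downstream of gene starts, where it pauses, but it also accumulates past the polyadenylation site before it leaves the template, along highly transcribed genes, and at enhancers, where it makes short unstable transcripts. p52, the product of *NFKB2*, is the DNA-binding subunit of the non-canonical NF-κB pathway, and ETS1 is a transcription factor of the ETS family, whose members bind DNA around the letters GGAA.

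The U-87 MG line derives from a human glioblastoma. Control cells were serum-starved for 8 h and left untreated or treated with 10 ng/ml TWEAK, a cytokine of the tumour necrosis factor family that activates non-canonical NF-κB, for 48 h. Cells with CRISPR/Cas9 knockdown (KD) of *ETS1* or *NFKB2* were all TWEAK-treated, so no untreated KD group was compared. RNA Pol II and factor peaks came from 2 ChIP-seq replicates per group, and RNA from 3 RNA-seq replicates per group with 28384201 to 40192606 counted reads. Nothing in the sources states whether the ChIP-seq replicates were separate cultures, while the RNA-seq replicates are described as biological. The labels give the guide for the p52 ChIP-seq of *ETS1* KD cells (guides 1 and 2) and none for the KD cells of the RNA Pol II and RNA libraries.

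The sites were chosen by the presence of a peak in the 4 control lists and by the distance to a start, so these values are given as a description only. The centre decided the position, and a wide site can still reach over a start. Of the 3791 sites, 1140 (30.1%) held the start of a protein-coding or long non-coding RNA gene somewhere inside them, 37 held only a small RNA start, 14 only a start of another kind, and 2600 (68.6%) held none. The name "outside promoters" therefore described the centre of a site and not its whole span. Many results below are also given for the 2600 sites with no start, a split chosen after seeing the data. Positions within gene bodies, past gene ends and between genes are given only for all sites of a class.

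The sequences that best show what lay under these sites come from the sites bound by p52, by ETS1, or by both after TWEAK, with no transcript start inside. Each is the 121-base window of hg38, plus strand, 5′ to 3′, centred on the highest factor summit. The first set holds 6 of the 10 sites whose lower p52 fold enrichment over the TWEAK replicates was highest. In it, capitals mark matches to the NF-κB consensus on either strand, and every window shown has a match. The windows in *POT1-AS1* and *ITGBL1*, also among the 10, held no match and are not shown.
chr20:53774805-53774925, intergenic: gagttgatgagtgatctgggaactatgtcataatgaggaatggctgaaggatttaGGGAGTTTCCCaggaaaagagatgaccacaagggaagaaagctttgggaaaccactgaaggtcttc
chr22:30250897-30251017, intergenic: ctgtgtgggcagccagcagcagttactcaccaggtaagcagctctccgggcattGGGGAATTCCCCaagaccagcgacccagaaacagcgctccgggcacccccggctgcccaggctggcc
chr10:79331860-79331980, intergenic: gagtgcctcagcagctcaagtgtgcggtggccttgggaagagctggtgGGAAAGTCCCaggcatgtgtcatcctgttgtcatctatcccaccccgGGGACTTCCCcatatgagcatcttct
chr14:93959464-93959584, *ASB2* intron: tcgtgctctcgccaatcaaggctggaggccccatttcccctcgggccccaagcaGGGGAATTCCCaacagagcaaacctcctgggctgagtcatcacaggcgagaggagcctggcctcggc
chr2:205731566-205731686, *NRP2* intron: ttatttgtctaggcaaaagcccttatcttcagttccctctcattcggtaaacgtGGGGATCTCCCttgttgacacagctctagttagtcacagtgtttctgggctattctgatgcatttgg
chr2:237379792-237379912, *COL6A3* intron: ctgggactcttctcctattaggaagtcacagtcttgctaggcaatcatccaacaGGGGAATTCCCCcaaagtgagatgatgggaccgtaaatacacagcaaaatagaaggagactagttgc

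The next sequence comes from the sites with the highest ETS1 fold enrichment, with capitals at matches to CCGGAA or AGGAAG on either strand. It is a tandem repeat that carried the reverse complement of CCGGAA 4 times.
chr16:89241059-89241179, intergenic: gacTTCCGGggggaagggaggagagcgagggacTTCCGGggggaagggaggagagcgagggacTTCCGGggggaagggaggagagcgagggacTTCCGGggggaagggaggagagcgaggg

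The last comes from the sites with both factors, and capitals mark GGAAT, the repeat unit of the pericentromeric satellites, on either strand.
chr4:49137205-49137325, intergenic: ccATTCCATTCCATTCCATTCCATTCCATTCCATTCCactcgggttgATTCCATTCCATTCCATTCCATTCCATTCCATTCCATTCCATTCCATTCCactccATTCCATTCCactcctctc

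By position, 2419 of the 3791 sites (63.8%, exact 95% binomial interval 62.3 to 65.3%) were centred in a gene body, 665 (17.5%, 16.3 to 18.8%) at a gene end, from 500 bp before to 3000 bp past it, and 707 (18.6%, 17.4 to 19.9%) in neither. These intervals, and all others below for shares of sites, cover counting error only. Gene starts were spread unevenly over the classes. They lay inside 268 (40.3%) of the gene-end sites and 849 (35.1%) of the gene-body sites, but inside 23 (3.25%) of the intergenic ones. Sites without any start numbered 394 at gene ends, 1545 in gene bodies and 661 between genes.

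**Figure D1:**
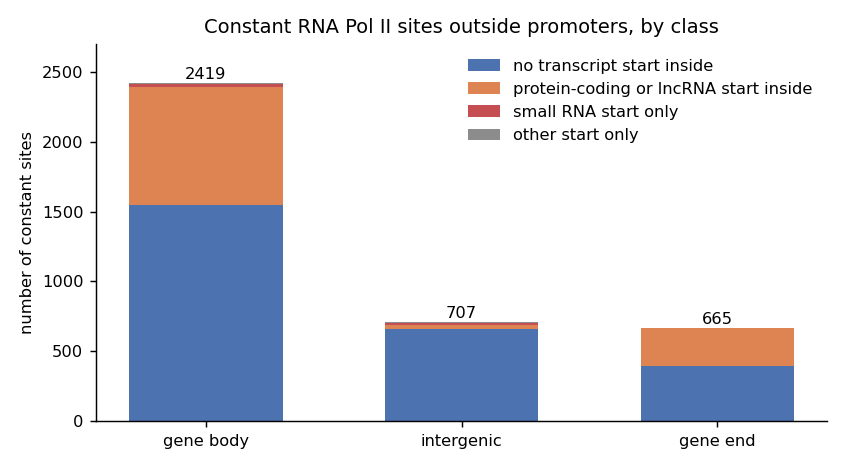
Number of constant RNA Pol II sites outside promoters (y axis) in each position class (x axis), with bars stacked by the kind of transcript start inside the site. Gene body sites are the most numerous at 2419, and almost all of the 707 intergenic sites hold no start.

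Most gene-body sites were centred in introns, and the 5′ side of their genes held more of them than the other parts. How much of the gene sequence is intron was not counted, and 849 of these sites held a gene start. Both shares are therefore descriptions. Of the 2419, 1973 (81.6%) were centred in an intron and 446 (18.4%) in an exon of the host gene, and 2075 had a protein-coding host. With each gene cut into 3 equal parts, the 5′ part held 1091 (45.1%) of the centres, the middle 596 (24.6%) and the 3′ part 732 (30.3%). Within 2000 bp past a start lay 757 (31.3%), and 905 (37.4%) were more than 10000 bp from any start.

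Gene-end sites were spread over the window that defines them, most of which lies past the gene end. Their centres lay at a median of 1215 bp past the annotated end (interquartile range 343 to 2044 bp), and 340 of the 665 (51.1%) spanned the end itself. Of the 665, 102 were centred before the end, while 186, 204 and 173 fell in the successive kilobases past it. Intergenic sites were remote, with 493 of 707 (69.7%) over 10000 bp and 155 (21.9%) over 50000 bp from any protein-coding or long non-coding RNA start.

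The sites had a larger median width than constant promoter sites, 1446 bp (range 270 to 137408 bp) compared with 1026 bp. Gene-end sites had a median of 2030 bp, gene-body sites 1433 bp and intergenic sites 1211 bp. Sites with a gene start inside had a median of 2132 bp and those with no start 1268 bp. Over 10000 bp wide were 175 sites, of which 140 held a gene start. The widest lay over *DCBLD2* (137408 bp), which encodes a receptor-like membrane protein, and over *CD44* (105694 bp), the hyaluronan receptor. Other wide sites covered *NPC1* (84542 bp), a cholesterol transporter of the lysosome, and *LMNA* (49984 bp), which encodes the nuclear lamins A and C. The site at chr11:65416855-65485864, 69010 bp wide, held the start of the nuclear long non-coding RNA *NEAT1*. A single deposited peak had a median width of 337 to 376 bp in the 4 lists.

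Fold enrichment, the peak caller's ratio of the pile-up at a summit to the local background, was taken as the highest value of each list's peaks in the site. Median values for the 3791 sites were 6.53 and 7.57 in the untreated lists and 7.90 and 6.71 in the TWEAK lists. Constant promoter sites had 7.19, 12.8, 12.3 and 9.78 in the same order. Among the sites outside promoters the level followed the start content. Sites with a gene start inside had medians of 9.24, 14.7, 15.8 and 11.9, above the promoter sites in every list, and sites with no start had 6.004, 6.45, 6.60 and 5.82, below the promoter sites in every list. By class the medians were close together in each list, for example 6.05, 6.59 and 6.51 for gene end, gene body and intergenic sites in the first untreated list. Fold enrichment cannot be set against that of another list, because each was called against its own background and the ChIP-seq depth is not given in the sources used here.

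**Figure D2:**
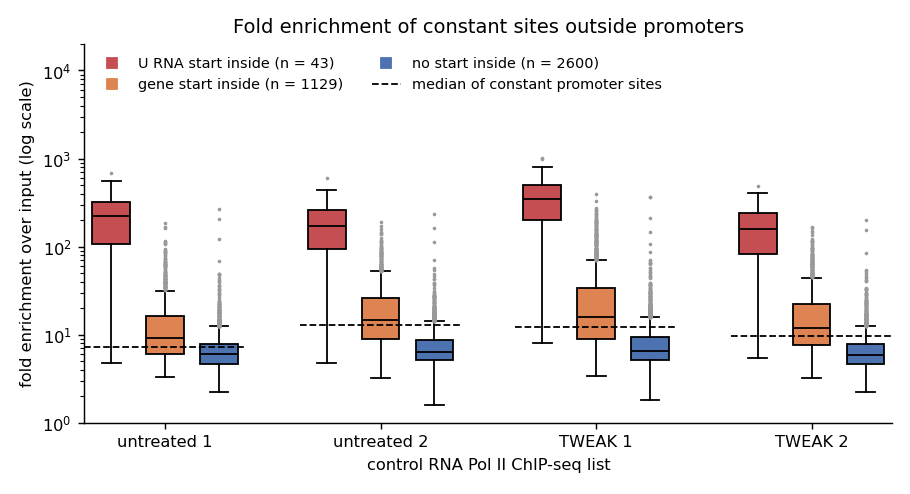
Highest RNA Pol II fold enrichment per site (y axis, log scale) in each of the 4 control lists (x axis), for sites that hold a U RNA start, a gene start or no start, with the median of constant promoter sites as a dashed line. The U RNA sites stand far above the rest in all 4 lists, and sites with no start have their medians below the promoter line.

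Sites just inside and just outside the promoter window were alike in strength. The 445 sites centred over 100 and up to 300 bp past a start had a median mean fold enrichment of 11.2 over the 4 lists, and the 2190 promoter sites centred 0 to 100 bp past a start had 10.6. Upstream, the 209 sites centred over 1000 and up to 1500 bp before a start had 10.0 and the 423 promoter sites centred 500 to 1000 bp before one had 10.5. Neither edge of the window marked a step in these medians.

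The strongest sites were U RNA genes. U1, U2 and U5 are the RNA cores of the spliceosome, U3 and U8 guide the processing of ribosomal RNA, and U7 serves the maturation of histone messenger RNA. Of the 20 strongest of the 3791 sites, ranked by the lowest fold enrichment over the 4 lists, 18 held the start of such a gene, as did 31 of the 50 and 37 of the 100 strongest and 43 of all. Their median fold enrichment was 222 and 172 in the untreated lists and 345 and 157 in the TWEAK lists. U1 genes or copies were found in 20 sites (12 of them intergenic), U2 in 10 (9 in *CCDC200*), U5 in 6, U3 in 5, and U7 and U8 in 1 each. These genes exist in near-identical copies that share reads, so the split of the signal between copies is uncertain.

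The site at chr17:19187428-19190808, with the U3 genes *SNORD3A* and *SNORD3C*, had the highest lowest value of all. Its fold enrichment was 680 and 599 in the untreated lists and 979 and 486 in the TWEAK lists, and 638 and 637 in the *ETS1* KD and 554 and 314 in the *NFKB2* KD lists. The U1 site at chr1:16512341-16514861 (*RNU1-1*) had 518, 410, 810 and 378 in the 4 control lists. The U5 site at chr15:65304384-65306544 (*RNU5B-1*) had 413, 310, 570 and 258. At the end of *TMEM107*, the site chr17:8171966-8173933 with the U8 gene *SNORD118* had 263, 199, 365 and 168. All of these kept a peak in all 4 KD lists.

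Sites with no start reached lower values, with few exceptions. The strongest lay in *LINC00910*, a long non-coding RNA (chr17:43367107-43369778), with 269 and 235 untreated and 367 and 200 with TWEAK. The next was intergenic at chr17:43315220-43316957, with 204, 163, 364 and 156. Both lie near the U2 array of *CCDC200* on chromosome 17, where 9 sites held U2 starts. On other chromosomes, the intergenic site chr2:121074433-121075754 had 121, 114, 212 and 85.4. An intronic site of *FRMD4A*, which encodes a scaffold protein of cell polarity, had 47.2, 39.0, 68.3 and 44.01. The distance of these sites to the nearest U RNA gene was not measured. At gene ends the sites with no start were weaker. The site past *CSTB*, a cysteine protease inhibitor (chr21:43769499-43773764), had 12.8, 26.7, 13.6 and 13.1, and the one past the olfactory receptor gene *OR4F6* had 15.9, 16.2, 27.1 and 14.4.

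Of the 3791 sites, 3084 had a host gene, and they fell in 2164 genes, 1743 of them protein-coding. Most hosts (1699) held 1 site, and 50 held at least 5. *KMT2E*, a chromatin regulator of the MLL family, and *SVIL*, which encodes the actin-binding supervillin, held 15 each, *COL6A3*, a collagen VI chain, and *MYH9*, non-muscle myosin heavy chain, 14 each. *RUNX1*, a transcription factor, held 12. The β1 integrin gene *ITGB1*, *LINC-PINT* and *TRIO*, which encodes a guanine nucleotide exchange factor, held 11 each, and *CAPN2*, a calpain protease, held 10. The sites of *KMT2E* together covered 28491 of its 174077 bp, and those of *COL6A3* 63425 of its 90326 bp. Fold enrichment in these genes was close to that of all sites with no start. The medians were 5.51, 5.20, 5.46 and 4.79 for *KMT2E* and 6.33, 5.74, 6.34 and 4.68 for *COL6A3*.

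Genes with more sites had a higher median length and a higher median RNA level. On the per-length scale of FPKM, hosts with 1 site had a median untreated level of 3.86, those with 2 to 4 sites 9.62 and those with 5 or more 12.5. Their median gene lengths were 38667, 80802 and 169848 bp. Length and RNA level moved together here and their parts were not separated.

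RNA Pol II lists of the KD cells were not used to choose the sites. In the *ETS1* KD lists 84.1% and 85.6% of the 3791 sites held a peak, and in the *NFKB2* KD lists 91.0% and 46.0%. The second *NFKB2* KD list was the shortest, with 11175 peaks compared with 24710 to 30310 in the other KD lists, and the low share moved with that length. All 4 KD lists held a peak at 1635 sites (43.1%) and none did at 122 (3.22%).

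The shares again followed the start content. Sites with a gene start kept a peak in 95.5% and 96.0% (*ETS1* KD) and 97.3% and 76.7% (*NFKB2* KD) of cases, and sites with no start in 78.8%, 80.9%, 88.1% and 31.8%. Promoter sites lay between them in 3 of the 4 lists at 90.9%, 92.2% and 96.3%, and slightly above the sites with a gene start in the last at 77.1%. Sites present only with TWEAK had shares of 32.6%, 37.1%, 34.8% and 3.88%. A peak in all 4 KD lists was seen at 848 (74.4%) of the sites with a gene start, 746 (28.7%) of those with none, 3661 (70.5%) promoter sites and 14 (1.32%) of the TWEAK-only sites. The sites with no start also had the lower fold enrichment, and the part of peak strength in these shares was not tested.

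**Figure D3:**
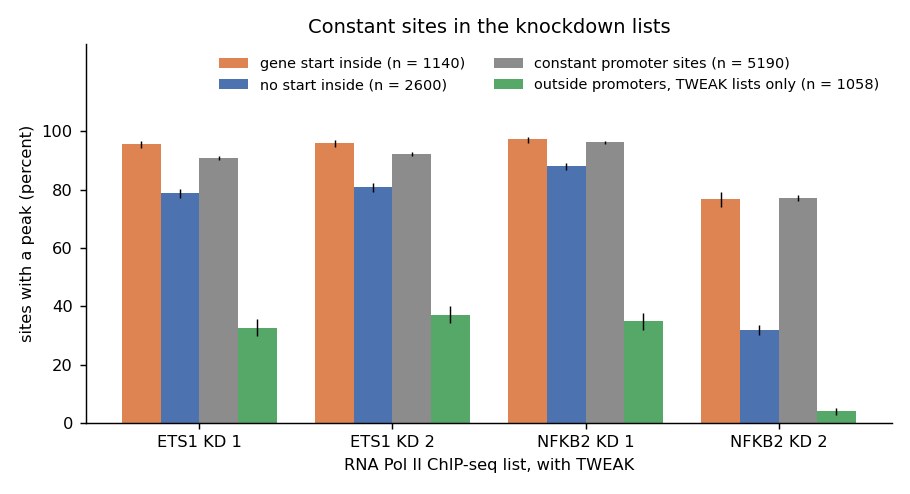
Percent of sites with an RNA Pol II peak (y axis) in each KD list (x axis), for sites with a gene start, with no start, promoter sites and sites found only with TWEAK. Error bars are exact 95% binomial intervals, and the second NFKB2 KD list is lowest for every kind of site.

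By class, the gene-end sites had the highest shares in KD cells, at 86.9%, 90.2%, 93.8% and 52.5%, compared with 84.5%, 85.1%, 90.5% and 44.4% in gene bodies and 79.8%, 83.0%, 89.7% and 45.1% between genes. Among sites with no start the gene-end sites led in the first 3 lists (80.7%, 85.0% and 91.1%), while intergenic sites led in the last (42.5%, compared with 33.0% at gene ends and 26.9% in gene bodies).

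p52 binding at these sites was rare before TWEAK and commoner after it. A p52 peak in both replicates overlapped 29 sites (0.765%) in untreated cells and 219 (5.78%, 5.06 to 6.57%) after TWEAK. The 2 TWEAK lists differed widely, with 228 sites in the shorter list of 3579 peaks and 640 in the longer one of 11761. Of the 219, 197 held no p52 peak in either untreated list. Intergenic sites had the highest share, 66 of 707 (9.34%, 7.29 to 11.7%), above gene-body sites (126, 5.21%) and gene-end sites (27, 4.06%), and promoter sites had 257 of 5190 (4.95%). With no start inside the order was the same, 56 of 661 intergenic (8.47%), 61 gene-body and 10 gene-end sites (2.54%), and 127 of 2600 (4.88%) in all. Set against all p52 binding, 228 of the 2910 p52 sites found in both TWEAK replicates (7.84%) overlapped a constant RNA Pol II site outside promoters.

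Most of these p52-bound sites also held a p52 peak in *ETS1* KD cells in guide 1 replicate 2 and in both guide 2 replicates. In guide 1 replicate 1 most did not. Of the 219 sites, 45.7% and 81.3% held a p52 peak in the guide 1 replicates and 79.5% and 79.0% in those of guide 2. All 4 lists held one at 98 sites and none at 22. The 257 p52-bound promoter sites had similar shares, 36.6%, 81.7%, 82.9% and 81.7%. The lowest share belonged to the shortest of these p52 lists, with 1387 peaks.

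ETS1 overlap was closer between the 2 states. Both replicates overlapped 108 sites (2.85%) in untreated and 157 (4.14%, 3.53 to 4.83%) in TWEAK-treated cells, with 91 in both states, and single lists gave 227 and 129 sites untreated and 233 and 235 with TWEAK. Intergenic sites again had the highest share (50, 7.07%), above gene ends (24, 3.61%) and gene bodies (83, 3.43%). Promoter sites had a similar share (380, 7.32%), and sites with no start had only 60 of 2600 (2.31%), of which 44 were intergenic, 14 in gene bodies and 2 at gene ends.

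**Figure D4:**
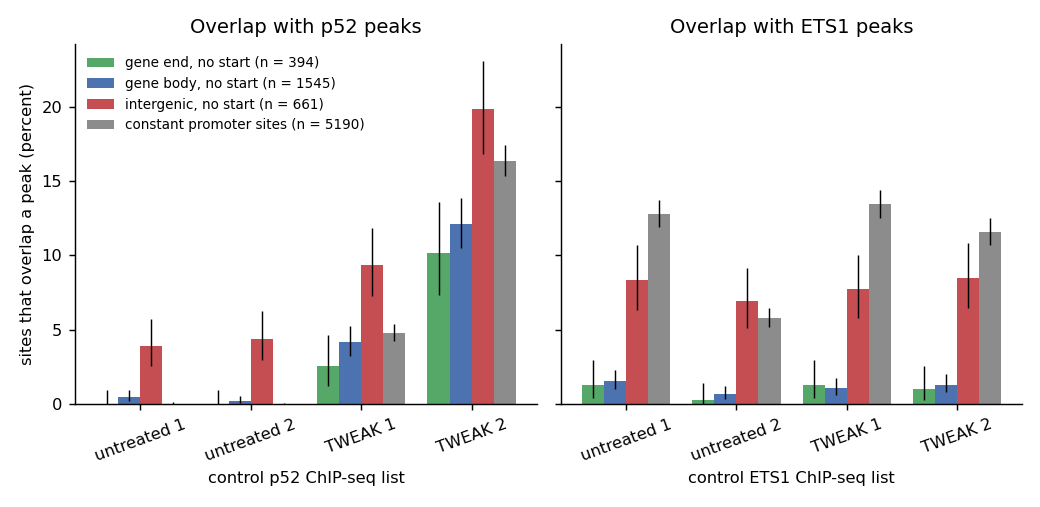
Percent of sites overlapped by a p52 or an ETS1 peak (y axis) in each control list (x axis), for sites with no start by class and for promoter sites. Error bars are exact 95% binomial intervals. p52 overlap is near 0 in the untreated lists apart from the intergenic sites and higher in both TWEAK lists.

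The sites shown first were picked for their p52 fold enrichment, so its size is a description. The intergenic site on chromosome 20 had a p52 fold enrichment of 33.4 and 79.5 in the TWEAK replicates, the one on chromosome 22 had 30.3 and 68.0, and that on chromosome 10 had 28.4 and 59.1. RNA Pol II at the same sites had 4.50, 3.62, 10.0 and 5.42 (chromosome 20), 5.46, 5.27, 10.3 and 7.28 (chromosome 22) and 7.29, 8.88, 11.7 and 7.99 (chromosome 10) in the untreated and TWEAK lists. None of the 3 sites had an untreated p52 peak.

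Inside genes, the *ASB2* site, in an intron of a ubiquitin ligase adaptor gene, had 26.1 and 64.4 for p52, and the *NRP2* site, in a gene for a semaphorin and VEGF co-receptor, had 22.7 and 45.4. The *COL6A3* site had 21.1 and 45.6 for p52, and for RNA Pol II 8.39 and 7.39 untreated and 8.94 and 5.51 with TWEAK. p52 sites of similar or greater strength also lay in sites that held gene starts. These were *MSRB3-AS1* (39.5 and 100), *B2M* (33.7 and 81.3), the invariant chain of MHC class I, and *TNIP1* (30.4 and 63.6), an inhibitor of NF-κB signalling.

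Matches to the NF-κB consensus were common at p52 summits and rare elsewhere. Of the 104 sites with no start that held p52 and not ETS1, 58 (55.8%) had a match in the 201 bases around the p52 summit. The 201 bases around the RNA Pol II summit had one in 66 (2.54%) of the 2600 sites with no start and in 4.39% of promoter sites. The AP-1 letters TGANTCA were found in 45 (43.3%) of the 104 p52 windows, in 378 (14.5%) of the 2600 and in 3.28% of promoter windows. The ETS letters AGGAAG did not follow p52, at 26.0%, 24.9% and 23.1% of the same windows, and CCGGAA was found in 7.69%, 3.65% and 20.5%. At ETS1 summits in sites with no start, AGGAAG was found in 16.7% and CCGGAA in 10.0% of the 60 windows. All letters were searched on both strands, and AGGAAG and CCGGAA share GGAA. The windows differed in base composition, with a median GC content of 47.3% for RNA Pol II windows without a start and 66.2% for promoter windows.

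p52 and ETS1 after TWEAK, each in both replicates, met at 41 sites, 25 intergenic, 11 in gene bodies and 5 at gene ends. Of these, 23 had no start, 22 of them intergenic, and none of the 23 had an NF-κB match. Of the 23, 13 held at least 20 copies per kb of TTAGGG, the telomere repeat, or GGAAT, 7 lay within 100000 bp of a chromosome end, 15 were over 100000 bp from any start, and 19 held p52 in both untreated lists. The chromosome 4 satellite site shown above had a p52 fold enrichment of 3.89 and 3.27 untreated and 3.34 and 2.86 with TWEAK, and 3.33 and 4.36 for ETS1 with TWEAK. The site thus held p52 peaks in all 4 control p52 lists.

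Over all 3791 sites 23 were dense in these repeats, 22 of them intergenic and all with no start. p52 untreated overlapped 15 of them (65.2%) and ETS1 untreated 21 (91.3%). Without them the p52 share fell to 206 of 3768 sites (5.47%) after TWEAK and 14 (0.372%) untreated, and the ETS1 share after TWEAK to 138 (3.66%). For intergenic sites with no start the p52 share became 43 of 639 (6.73%) and the ETS1 share 25 (3.91%). Short reads from such repeats often map to many places. The study reports that it removed blacklisted regions, and these sites were in the deposited lists. Whether the deposited lists come from before or after that step was not checked.

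Among sites with ETS1, the one of *SNAPC1* and *HIF1A-AS3* had an ETS1 fold enrichment of 19.98 and 23.5 in the TWEAK replicates, *AMOTL2*, which encodes an angiomotin-like adhesion protein, 9.50 and 13.1, and *ADORA2B*, an adenosine receptor, 11.4 and 10.6. The chromosome 16 repeat shown above, with no start, was level with the first of these at 19.98 and 20.5.

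Of the 2164 host genes, 1776 had enough reads to be tested among 16879 genes with edgeR's quasi-likelihood test and Benjamini-Hochberg adjustment. They had more RNA than the average gene, with a median of 52.4 CPM (counts scaled to the library total) in untreated cells, compared with 15.7 over all tested genes. In bulk RNA, fewer cells that express a gene and less RNA per cell cannot be told apart, and the p-values measure the spread between these replicates. Of all tested genes 3.08% were called with TWEAK (1.55% higher and 1.53% lower), 1.39% with *ETS1* KD (0.255% higher and 1.13% lower) and 0.0296% with *NFKB2* KD (0.00592% higher and 0.0237% lower), both KD groups being compared with TWEAK-treated controls. All 3 comparisons share those control libraries.

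With TWEAK, 107 host genes (6.02%) were called, 72 higher (4.05%) and 35 lower (1.97%). With *ETS1* KD, 56 (3.15%) were called, 11 higher and 45 lower, and with *NFKB2* KD only *TRAF1*. DESeq2 called 9 hosts with *NFKB2* KD, and 98 had an unadjusted p below the threshold of 0.05. At the looser criterion of an unadjusted p no higher than 0.05 with a change of 1.5-fold or more, 150 hosts passed with TWEAK (8.45%), 126 with *ETS1* KD (7.09%) and 30 with *NFKB2* KD (1.69%), compared with 7.09%, 5.67% and 2.25% of all tested genes. The count with TWEAK fell to 49 and 41 without TWEAK replicates 2 and 3 and to 48 and 42 without untreated replicates 1 and 2, and that with *ETS1* KD to 27 without KD replicate 3, 35 without TWEAK replicate 2, and 38 or 39 without any one of the other 4 libraries. Of the genes with a start in a constant promoter site, 136 of 6144 (2.21%) were called with TWEAK and 61 (0.993%) with *ETS1* KD. Gene-body hosts gave 93 of 1396 with TWEAK (6.66%, 60 higher), gene-end hosts 22 of 501 (4.39%, 18 higher) and hosts of sites with no start 63 of 1081 (5.83%, 37 higher). The hosts had a higher RNA level than all tested genes. Median untreated levels were 83.2 CPM for gene-end hosts, 49.0 for gene-body hosts and 37.7 for the genes of promoter sites. The part of RNA level in these shares was not tested.

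Of 46 tested hosts with 5 or more sites, edgeR called 1 with TWEAK (2.17%, near the 3.08% of all tested genes). With *ETS1* and *NFKB2* KD edgeR and DESeq2 called none, while 3 and 1 had an unadjusted p below 0.05, and so few genes cannot be told from the shares over all tested genes. The gene called with TWEAK was *RFX8*, named here after its values were seen, with 18.9, 18.9 and 24.9 CPM untreated and 31.7, 46.5 and 56.2 CPM with TWEAK (log2 fold change 1.10 ± 0.22 (SE), edgeR adjusted p = 0.0196). Its call was lost without TWEAK replicate 2 or 3 or untreated replicate 1 or 2 (adjusted p up to 0.117). None of the 10 leading genes passed the test in any comparison. *KMT2E* had 72.7, 70.5 and 60.9 CPM untreated, 71.3, 87.8 and 96.5 with TWEAK, 74.2, 64.2 and 85.2 in *ETS1* KD and 64.6, 60.9 and 83.3 in *NFKB2* KD cells. *COL6A3* had 949, 1007 and 1838 CPM untreated and 802, 1368 and 1760 with TWEAK. The groups of both genes overlapped.

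**Figure D5:**
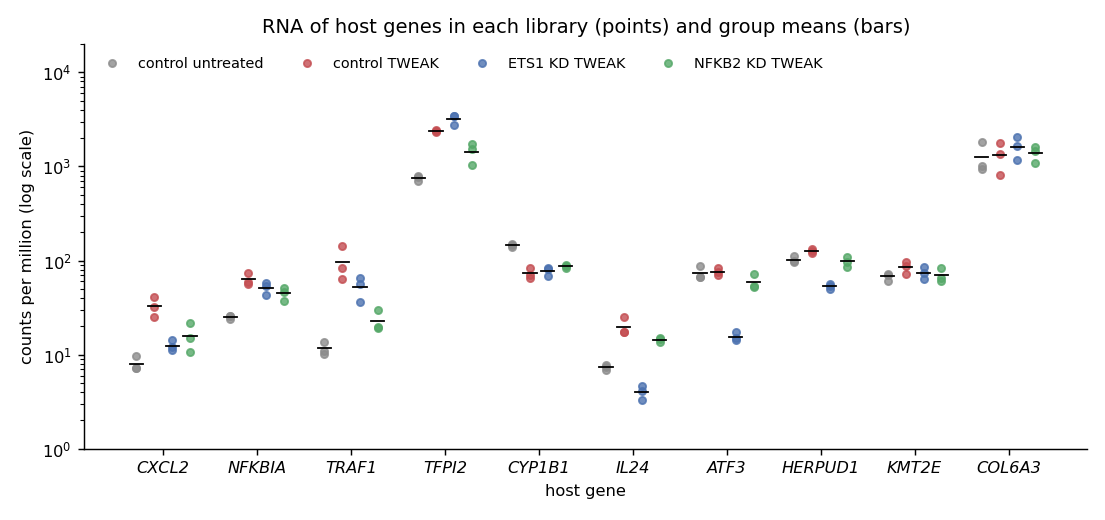
RNA level in CPM (y axis, log scale) of 10 host genes (x axis) in the 4 RNA-seq groups, with a point for each library and a bar at each group mean. CXCL2, NFKBIA, TRAF1 and TFPI2 are higher with TWEAK, ATF3 and HERPUD1 are lower in ETS1 KD cells, and KMT2E and COL6A3 overlap in all groups.

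Of 127 tested hosts of p52-bound sites, 16 (12.6%) were called with TWEAK, 14 higher and 2 lower, and of 1649 hosts without p52, 91 (5.52%) were. The difference between these shares was not tested. The count of 16 was 10 without untreated replicate 2. Of the 57 tested hosts of p52-bound sites with no start, 5 (8.77%) were called, and these are named after their values were seen. *NRG1*, which encodes the ErbB ligand neuregulin 1, had 36.6, 40.7 and 45.3 CPM untreated and 92.4, 104 and 148 with TWEAK (log2 fold change 1.49 ± 0.25, edgeR adjusted p = 0.00669). *MAP3K5*, the stress kinase ASK1, had 12.8, 11.6 and 11.3 CPM untreated and 18.4, 19.5 and 22.7 with TWEAK (0.76 ± 0.12, edgeR adjusted p = 0.00534). *IRAK2*, a kinase of interleukin-1 receptor signalling, had 23.9, 24.3 and 24.9 CPM untreated and 35.7, 38.7 and 47.4 with TWEAK (0.73 ± 0.13, edgeR adjusted p = 0.00787). The remaining pair fell. *RAB31*, a small GTPase of vesicle traffic, changed by -0.58 and the unnamed gene ENSG00000280241 by -0.78. The *IRAK2* call was lost without TWEAK replicate 3 or untreated replicate 1 or 2 (adjusted p up to 0.053), and that of *RAB31* without TWEAK replicate 2 or untreated replicate 2 (up to 0.0535).

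Of a list of 29 NF-κB pathway and target genes, 28 were tested, 16 rose with TWEAK and 12 were not called higher, and 11 were hosts of 1 site each. Of these 11 hosts 8 rose, with a median log2 fold change of 1.33 over the 11, compared with 0.02 over all tested genes. This list, too, was chosen with earlier results of these data known, so the comparison is a description. *BCL3* (0.02), *RELA* (0.41) and *SOD2* (0.02) were not called.

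*CXCL2*, a neutrophil-attracting chemokine, had 7.30, 7.16 and 9.56 CPM untreated and 25.4, 32.3 and 41.2 with TWEAK (log2 fold change 2.04 ± 0.25, edgeR adjusted p = 0.000733). Its site (chr4:74094642-74100068) spanned the whole gene and was centred before the gene end, with RNA Pol II fold enrichment of 15.0 and 26.5 untreated and 159 and 61.7 with TWEAK and p52 of 20.4 and 40.1. In *ETS1* KD cells *CXCL2* had 11.3, 12.02 and 14.2 CPM (-1.40 ± 0.24, edgeR adjusted p = 0.0109), a call lost without *ETS1* KD replicate 1 or 2 or TWEAK replicate 3 (up to 0.0669). The groups did not overlap in either comparison.

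*CXCL3*, from the same chemokine cluster, had 1.60, 2.03 and 2.66 CPM untreated and 8.79, 10.2 and 17.6 with TWEAK (log2 fold change 2.54 ± 0.33, edgeR adjusted p = 0.00105), and its site (chr4:74037649-74039450) had 26.3 and 50.7 for p52. *CXCL8*, interleukin-8, had 6.15, 6.52 and 4.78 CPM untreated and 16.3, 14.4 and 25.2 with TWEAK (1.68 ± 0.23, edgeR adjusted p = 0.00174). Its site (chr4:73740371-73746379) lay at the gene end and held no p52 peak in either TWEAK list.

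*TRAF1*, an adaptor of tumour necrosis factor receptors, changed most of these 11 hosts. It had 10.3, 11.03 and 13.6 CPM untreated and 64.2, 83.1 and 144 with TWEAK (log2 fold change 3.06 ± 0.31, edgeR adjusted p = 0.000249). Its site (chr9:120924879-120926804) had RNA Pol II fold enrichment of 5.005 and 7.09 untreated and 22.9 and 18.0 with TWEAK, and 8.21 and 14.8 for p52. In *NFKB2* KD cells *TRAF1* had 19.8, 19.2 and 29.9 CPM (-2.08 ± 0.30, edgeR adjusted p = 0.0392). That call did not hold without any *NFKB2* KD replicate (adjusted p 0.261, 0.227 and 0.0886 without replicates 1, 2 and 3) or without TWEAK replicates 2 and 3 (0.0948 and 0.117).

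*NFKBIA*, the inhibitor IκBα, had 23.8, 26.0 and 25.8 CPM untreated and 56.5, 59.8 and 73.4 with TWEAK (log2 fold change 1.33 ± 0.15, edgeR adjusted p = 0.00051). Its site (chr14:35398477-35405021) had RNA Pol II fold enrichment of 35.0 and 36.0 untreated and 159 and 67.7 with TWEAK. *RELB*, the usual partner of p52, rose by 1.36 ± 0.15 on the log2 scale (edgeR adjusted p = 0.000437), and its site held p52 at 26.3 and 50.5. *TNIP1* rose by 0.60 ± 0.12 (edgeR adjusted p = 0.0213), a call lost without TWEAK replicate 2 or 3 or untreated replicate 1 or 2 (up to 0.135).

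*IL6*, the cytokine interleukin-6, was the only one of these 8 whose site held no start. The site (chr7:22729209-22732939) was centred 5190 bp from the gene start, in an exon. It had 2.82, 2.74 and 2.69 CPM untreated, 6.17, 4.88 and 6.83 with TWEAK (log2 fold change 1.12 ± 0.19, edgeR adjusted p = 0.00777) and 1.55, 0.950 and 1.43 in *ETS1* KD cells (-2.18 ± 0.20, edgeR adjusted p = 0.00019). The rise was not called without TWEAK replicate 3 (0.054). RNA Pol II fold enrichment at the site was 14.0 and 8.36 untreated and 6.14 and 5.70 with TWEAK.

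Outside that list, *TFPI2*, an inhibitor of serine proteases of the matrix, had 785, 708 and 766 CPM untreated and 2443, 2344 and 2399 with TWEAK (log2 fold change 1.67 ± 0.16, edgeR adjusted p = 0.000193). Its site (chr7:93879411-93891016), at the gene end and over the whole gene, had RNA Pol II fold enrichment of 22.8, 41.3, 144 and 73.6 and ETS1 of 5.33 and 8.71. *EREG*, the EGF receptor ligand epiregulin, had 55.01, 56.9 and 56.7 CPM untreated and 129, 172 and 246 with TWEAK (1.70 ± 0.27, edgeR adjusted p = 0.00484). *ZSWIM4* had 7.16, 8.39 and 10.9 CPM and then 19.7, 31.0 and 35.0 (1.69 ± 0.25, edgeR adjusted p = 0.00309). *RRAD*, a small GTPase, had 92.3, 98.0 and 111 and then 239, 235 and 214 (1.19 ± 0.12, edgeR adjusted p = 0.000193). In each of these 4 genes the untreated and TWEAK groups were well apart. *SERPINB2*, an inhibitor of plasminogen activators, rose by 1.77 ± 0.40 (edgeR adjusted p = 0.0309) and was not called without any one of the 6 libraries (up to 0.118).

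Host genes that fell with TWEAK changed less. *COL15A1*, a basement membrane collagen, had 3.54, 4.09 and 4.88 CPM untreated and 1.79, 1.89 and 1.33 with TWEAK (log2 fold change -1.32 ± 0.21, edgeR adjusted p = 0.00514). *CYP1B1*, a cytochrome P450 enzyme, had 145, 151 and 139 CPM untreated and 65.6, 70.9 and 83.3 with TWEAK (-0.98 ± 0.12, edgeR adjusted p = 0.000636). The *CYP1B1* site (chr2:38092039-38093090) held no start and had 9.51, 8.64, 8.90 and 7.84 for RNA Pol II in the 4 control lists. *PALMD*, palmdelphin, fell by 0.93 on the log2 scale (edgeR adjusted p = 0.00687). These 3 calls held without any one library. *AK5* (-1.37), *TSPAN9* (-1.20), *ANK1* (-1.05), *HHAT* (-0.92) and *MT1E* (-0.89) were also called lower, and each lost its call without at least 4 of the single libraries in turn, TWEAK replicates 2 and 3 and untreated replicate 2 among them for all 5 (adjusted p up to 0.0663, 0.11, 0.158, 0.141 and 0.138). The *HHAT* site held the U5 copy *RNU5A-8P*, so its RNA Pol II signal need not be that of *HHAT*.

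In *ETS1* KD cells the targeted gene itself, host of 3 sites, had 71.9, 73.1 and 87.6 CPM in TWEAK controls and 28.2, 33.0 and 37.8 in the KD (log2 fold change -1.23 ± 0.15, edgeR adjusted p = 0.00112). *NFKB2*, host of none, had 235, 289 and 346 CPM and 75.7, 92.6 and 105 in its KD (-1.67 ± 0.18, edgeR adjusted p = 0.00339). The hosts named next for *ETS1* KD were chosen after their values were seen.

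*IL24*, a cytokine of the interleukin-10 family, had 17.4, 17.4 and 24.9 CPM in TWEAK controls and 3.31, 4.63 and 4.09 in *ETS1* KD cells (log2 fold change -2.31 ± 0.17, edgeR adjusted p = 3.17e-05), after a rise with TWEAK from 7.33, 6.92 and 7.75. *ATF3*, a stress-induced transcription factor, had 70.5, 75.7 and 83.2 and then 17.4, 14.9 and 14.5 (-2.30 ± 0.16, edgeR adjusted p = 3.15e-05). *ZNF474* had 2.05, 2.64 and 2.39 and then 0.293, 0.0920 and 0.172 (-3.64 ± 0.47, edgeR adjusted p = 0.00173). All 3 were lower in every *ETS1* KD library than in any TWEAK control.

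Of a list of 16 endoplasmic reticulum (ER) chaperone and stress genes, 5 were hosts, each with a gene-end site, and 3 of them fell in *ETS1* KD cells. *DDIT3*, the stress factor CHOP, had 149, 119 and 117 CPM in TWEAK controls and 40.1, 39.8 and 29.3 in *ETS1* KD cells (log2 fold change -1.82 ± 0.18, edgeR adjusted p = 0.000235). *HERPUD1*, of ER-associated degradation, had 121, 126 and 132 and then 55.8, 50.2 and 53.8 (-1.24 ± 0.11, edgeR adjusted p = 0.000157). *ATF4*, a transcription factor of the integrated stress response, had 311, 290 and 265 and then 208, 179 and 193 (-0.58, edgeR adjusted p = 0.0101), and was not called without *ETS1* KD replicate 2 or 3 or TWEAK replicate 2 (up to 0.0703). *CALR* and *XBP1* were not called. Over the whole list 6 fell, and the median of the 5 hosts was -0.58, compared with 0.01 over all tested genes. The list was chosen with earlier results of these data known, so these values are a description. No ER host was called with TWEAK by edgeR or DESeq2 (2 had an unadjusted p below 0.05).

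Of the 11 hosts higher in *ETS1* KD cells, *BDKRB1*, a bradykinin receptor, had 7.35, 9.14 and 7.495 CPM in TWEAK controls and 15.4, 16.5 and 15.6 in the KD (log2 fold change 0.99 ± 0.14, edgeR adjusted p = 0.00274). *HAS1*, a hyaluronan synthase, had 44.9, 48.8 and 52.1 and then 84.9, 85.9 and 92.8 (0.85 ± 0.13, edgeR adjusted p = 0.00461). Both calls held without any one library.

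The share of hosts called in *ETS1* KD cells was close with and without ETS1 at the site. Of the 92 tested hosts of ETS1-bound sites, 3 (3.26%) were called, and of 1684 hosts without ETS1, 53 (3.15%). They were *FAM83D* (0.46), *CRIM1* (0.81), a regulator of bone morphogenetic proteins, and *ADAMTS5*, an aggrecan-cleaving protease. *ADAMTS5* had 147, 160 and 200 CPM in TWEAK controls and 46.0, 58.1 and 48.9 in the KD (log2 fold change -1.73 ± 0.31, edgeR adjusted p = 0.0129), but was not called without *ETS1* KD replicate 1 or 3 or TWEAK replicate 3 (up to 0.0839). The *CRIM1* call was lost without any *ETS1* KD replicate or TWEAK replicate 1 or 2 (up to 0.185), and that of *FAM83D* without any one library (up to 0.24). Leaving out *ETS1* KD replicate 1 or 3 left none of the 3. Of 16 tested hosts of ETS1-bound sites with no start, edgeR called none, DESeq2 1, and 4 had an unadjusted p below 0.05.

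Other gene lists also hosted sites. Of 25 cytoskeleton and adhesion genes, 22 were hosts of 54 sites, and *TPM1* (0.59), a tropomyosin, and *VIM* (0.81), vimentin, rose with TWEAK. With *ETS1* KD edgeR called none of the 22, DESeq2 2, and 8 had an unadjusted p below 0.05. Of 22 extracellular matrix genes, 10 hosted 26 sites, among which *CCN1* (1.21) rose with TWEAK. Of 18 immediate early genes, 9 were hosts, and *KLF6* (0.41) rose with TWEAK, though the call was lost without any one library (up to 0.126) and with no filter on low counts (0.294). Of 14 nuclear and host-gene long non-coding RNAs, 5 hosted 12 sites and *SNHG1* (0.57) rose, not called without untreated replicate 1 or 2 or any TWEAK replicate (up to 0.152).

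Metabolic and translation genes also hosted sites, most of them with one at the gene end. Of 11 glycolysis genes, 6 were hosts, 5 of them with a gene-end site, and of 18 translation genes 8 were, 6 with a gene-end site. With TWEAK edgeR and DESeq2 called none of either list, and 1 and 0 hosts had an unadjusted p below 0.05. With *ETS1* KD neither tool called any and each list had 1 such host. With so few hosts, counts of 0 are also what the shares over all tested genes would give. The RNA Pol II machinery itself was hardly represented. No gene of its 12 subunits was a host, and 1 of 20 cleavage and termination genes was (*PCF11*).

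As a check of the cells, 4 of 6 markers of the line were hosts, *VIM*, *CD44*, *TNC* and *S100A6*, while *NES* and *CHI3L1* were not. *CDKN2A*, which this line has lost, was at 0 in every RNA library. Of 10 markers of other cell types, 4 had enough reads to be tested, *MBP* and *PECAM1* among them. None was called, which concerns change between groups and not presence. *MBP* and *PECAM1* of these 10 were hosts too, so being a host does not set the line apart from other cell types. The immune marker *CD3E* was at 0.029 CPM or below and the astrocyte marker *GFAP* at 0.365 CPM or below. Levels of the other markers, *MBP* and *PECAM1* among them, are not given here, so these values do not speak for the whole list.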

How the data were processed

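RNA Pol II, p52 and ETS1 were measured by ChIP-seq and RNA by poly(A) RNA-seq in U-87 MG cells. The authors mapped ChIP-seq reads to hg38 with Bowtie2 and called peaks per library with MACS2 against input, removing blacklisted regions. The deposited peak lists give a fold enrichment (a ratio) and −log10 p- and q-values per peak. The authors mapped RNA-seq reads with STAR and deposited whole-number read counts per gene from featureCounts. Versions, strand setting, ChIP-seq depth and the input used for each library are not given in the sources used here.

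From the 20 ChIP-seq lists, RNA Pol II control peaks were merged at an overlap of 1 bp and placed by their centre on GENCODE release 44. A host gene was the protein-coding, else long non-coding RNA, gene that held the centre, or whose end was nearest for gene-end sites. A factor overlapped a site when peaks of both replicates did so by at least 1 bp. Repeat-dense sites held 20 or more matches per kb. Counts of 12 RNA-seq libraries were fitted together with edgeR 4.0.16 (TMM, filterByExpr, quasi-likelihood F-test, adjusted p under 0.05) in R 4.3.3, with DESeq2 1.42.0 as an alternative. Sites were handled in Python 3.11.15 (scipy 1.17.1, numpy 2.4.6). The tests were tried on simulated data. Same-numbered replicates were not paired in the fit.

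Named sites were the 5 strongest of each class and the 10 with the most p52, ETS1 or both. Named genes were the 10 with most sites, the 8 highest and 8 lowest called hosts for TWEAK, the 8 largest changes among called hosts of bound sites, and members of gene lists. Sites, lists and rules were chosen with earlier results of these data known. The 3 input samples were not analysed here, and some genes and sequences are not reported here.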

Additional observations from a re-analysis of the deposited data

How the results depend on the processing

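None of the host genes called in the main run changed direction under any alternative fit. The gene-end share of sites was below the intergenic one in the main run. It was above it with gene ends up to 5000 bp past the end and without untreated replicate 1. With a −log10 q of at least 5 in all 4 lists 1708 sites remained, and with any one list left out 4263 to 5425 were found. The shares at gene ends, in gene bodies and between genes (17.5, 63.8 and 18.6%) became 22.3, 62.0 and 15.7% with gene ends from 0 to 5000 bp past the end, 13.2, 57.03 and 29.7% with protein-coding genes alone, and 15.2, 59.4 and 25.4% for sites with no start, a choice made after seeing the data. With gene bodies taken first, gene ends had 7.54% and gene bodies 73.8%. A promoter window from -2000 to +500 bp gave 59.8% in gene bodies and 22.99% between genes. Leaving out 1 list gave 16.9 to 18.9%, 63.2 to 64.8% and 18.0 to 18.4%.

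A peak in either replicate was found at 92.1% of sites with *ETS1* KD and at 91.6% with *NFKB2* KD. With equal numbers of the strongest peaks per KD list these were 73.2 and 72.1%, and with 1 replicate 84.1 to 85.6% and 46.0 to 91.0%. The p52 share of 5.78% was 17.1% with either replicate, 6.01 to 16.9% with 1, 4.83% with a −log10 q of at least 5 and 4.88% for sites with no start. The ETS1 share of 4.14% was 7.99, 6.15 to 6.20, 2.53 and 2.31% in the same order.

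Host genes called with TWEAK numbered 107 by edgeR, 179 by DESeq2, 41 to 84 with 1 library left out, 22 for gene-end sites and 63 for sites with no start. With *ETS1* KD the 56 were 86 by DESeq2, 98 with no filter on low counts, 126 with the looser criterion of p and fold change, 27 to 39 with 1 library left out and 28 for sites with no start. With *NFKB2* KD the 1 gene became 9, 13 and 30 under the first 3 of these, 0 with only the 6 libraries compared, 0 to 1 with 1 left out and 0 for sites with no start. Of hosts of p52-bound sites 16 were called with TWEAK, 10 to 16 with 1 library left out and 5 for sites with no start. Of hosts of ETS1-bound sites 3 were called with *ETS1* KD, 7 by DESeq2, 6 with no filter, 6 at the looser criterion, 0 to 1 with 1 left out and 0 for sites with no start. Why these counts moved was not tested beyond what fewer samples or genes give by construction.

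Same-numbered untreated and TWEAK RNA libraries correlated at 0.396, -0.178 and 0.492 in their deviations from group means, and differently numbered ones at -0.56 to 0.369. These values do not settle whether the replicate numbers pair the libraries. A fit with the replicate block called 140 hosts with TWEAK, 62 with *ETS1* KD and 1 with *NFKB2* KD, 22 hosts of p52-bound sites and 3 of ETS1-bound sites. Of the 38 gene calls with TWEAK that were refitted under every alternative, 22 held under all of them, 11 were lost only by leaving out a library and 5 otherwise as well. For *ETS1* KD these were 9, 11 and 2 of 22 calls, and for *NFKB2* KD the 1 call was lost by leaving out a library and otherwise as well. The unknown ChIP-seq depth limits what a missing peak can show.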

Other observations

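The order of the sites within each list, by fold enrichment, was also compared, since a scale common to a whole list does not change ranks. The local background at each site still enters them. Of the 3791 sites, 498 (13.1%) ranked higher in both TWEAK lists than in both untreated lists and 672 (17.7%) ranked lower. Sites with no start ranked higher in 11.1% and lower in 19.5% of cases, and promoter sites in 19.1% and 15.4%. Over all 8981 constant sites the shares were 16.6% and 16.4%. Ranks of sites that are fixed to be present in all 4 lists are a description, and no test was made.

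The 43 sites with U RNA starts included copies that are named as pseudogenes or variants. The *RNU5A-8P* site in *HHAT* had an RNA Pol II fold enrichment of 287 and 205 untreated and 345 and 151 with TWEAK, while the U2 copy *RNU2-37P* at *SEC61A1* had 4.80, 4.77, 7.96 and 5.39. Levels within the U1 family ranged from 23.9 to 810 over its 20 sites and the 4 lists.

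Some hosts shared a site with the start of another gene. The site past *MTO1* (chr6:73499667-73522067) held the start of the translation factor gene *EEF1A1*, with a p52 fold enrichment of 6.82 and 15.0 untreated and 17.1 and 24.1 with TWEAK. A site past *HAS1* held the start of *SPACA6*. The RNA of a host and the RNA Pol II of its site need not belong together there.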
